A study of Homo sapiens with 6 samples.

Results

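ATF4 and 9 of its known target genes in the amino acid response were followed in HCT116 cells, a human colorectal carcinoma line, after transfection of a miRNA mimic. The 10 genes were taken by symbol (ATF4, CHAC1, DDIT4, TRIB3, ASNS, PSAT1, PHGDH, SESN2, SLC7A11 and SLC3A2), and all 10 were listed once among the 58735 genes of the deposited table. Each gene was measured in 3 RNA-seq libraries of control cells, whose genotype the labels give as WT (CTR), and in 3 libraries of cells that received miR-8485 mimics (miR-8485). Such a mimic is an oligonucleotide made to act as the mature miRNA does. The cells were given 50 nM of it and collected 48 h later. The study describes the CTR cells as transfected with a control, whose sequence is not given in the sources used here. All libraries came from a single established line after transient transfection. Each library pools many cells, so a change in some cells and a smaller change in all of them cannot be told apart.

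ATF4 is a bZIP transcription factor of the integrated stress response. When amino acids run short, the kinase GCN2 phosphorylates the alpha subunit of the translation initiation factor eIF2, which slows general protein synthesis but favours translation of the ATF4 mRNA. The ATF4 protein then raises genes for amino acid synthesis and uptake, and tumor cells, colorectal ones included, use this route to keep their supply of amino acids. Because ATF4 is controlled largely at translation, its mRNA level need not follow its protein level, and only mRNA was measured here.

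The mimic is shown first because a miRNA mainly finds its mRNAs through its seed, bases 2 to 8. The capitals mark the seed, which pairs with the site TGTGTGT.
miR-8485 mimic: cACACACAcacacguau
By GENCODE release 44 on hg38, the build of the deposited table, canonical transcripts of 5 of the 10 genes held at least 1 copy of this site in the 3′ UTR. Among the 10672 tested genes with an annotated 3′ UTR, 28.9% held a copy. The genes with copies were ATF4 with 1 copy in 81 bases, CHAC1 with 1 in 738, DDIT4 with 2 in 848, SESN2 with 2 in 1689 and SLC7A11 with 15 in 7859. The 3′ UTRs of TRIB3, ASNS, PSAT1, PHGDH and SLC3A2 held 0 copies. The windows below show a copy in each of the 5 genes, on the strand of the gene, with the site in capitals.
ATF4, plus strand, chr22:39522641-39522670: agtgctgtagcTGTGTGTtccaataaatta
CHAC1, plus strand, chr15:40956408-40956437: ccactcctgccTGTGTGTtggtctattcct
DDIT4, plus strand, chr10:72275436-72275465: ttccagctggaTGTGTGTGTagcatgtacc
SESN2, plus strand, chr1:28280904-28280933: tgcagtgggctTGTGTGTgatgtgcagtcc
SLC7A11, minus strand, chr4:138170286-138170315: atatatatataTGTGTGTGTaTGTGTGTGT
In DDIT4 the 2 copies overlap, and the SLC7A11 window holds 4 of its 15 copies within a run of alternating bases. Longer 3′ UTRs hold more copies. A copy was present in 3.95% of the 177 tested genes whose 3′ UTR was between 0.8 and 1.25 times as long as that of ATF4, and in 74.8% of the 318 genes with one of similar length to that of SLC7A11. A copy is a match of letters and not a measured binding site, and which 3′ UTRs these cells use was not measured.

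ATF4 binds its targets at the CARE (C/EBP-ATF response element), whose core reads TGATGNAA. The promoter windows of RefSeq (GRCh38.p14, 250 bases before to 50 after a start site) were searched for this core on both strands. Windows were found for 9 of the 10 genes, and 3 of the 9 held a match, against 4.46% of the 27305 genes with a window. The matches are in capitals, on the strand of the gene.
ASNS, minus strand, chr7:97872458-97872487: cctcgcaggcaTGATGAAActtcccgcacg
CHAC1, plus strand, chr15:40953251-40953280: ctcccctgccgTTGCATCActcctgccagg
SLC3A2, plus strand, chr11:62881719-62881748: gtaatgtgcaggactccTTACATCAgctcc
The core began 68 bases before the start site in ASNS and 209 bases before it in CHAC1, where it lies on the opposite strand. In SLC3A2 it lies at base 38 after the start of 1 of 3 annotated windows, also on the opposite strand. No window was given for SLC7A11. The absence of these letters from the other 6 genes says nothing about ATF4 binding there.

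The values are FPKM, fragments of a gene scaled by its length and by the total of the library. The libraries held 17473874 to 18480047 fragments on listed genes. When fragments were compared by chi-square, which is near 1 per gene under sampling noise, libraries of different groups gave 76.3 to 87.7 (9 pairs) and replicates 2.90 to 12.7 (6 pairs). CTR replicate 1 stood apart within its group, at 12.7 and 10.1 from the other CTR libraries, where the remaining 4 pairs of replicates gave 2.90 to 4.33. Without it, ATF4 was at -0.43, CHAC1 at -0.45, DDIT4 at -0.81, SLC7A11 at -1.44, TRIB3 at 0.57, SESN2 at 0.40 and SLC3A2 at 0.22 in log2, all still past the threshold used below, and PSAT1, PHGDH and ASNS were still not past it. Of the markers of the labelled cell type, EPCAM lay at 127 to 148 FPKM and CDH1 at 18.7 to 20.4 FPKM in the 6 libraries. The 5 epithelial markers, with the keratins KRT8, KRT18 and KRT19, summed to 2598 to 2822 FPKM in CTR and 1724 to 1808 FPKM in miR-8485. The 3 leukocyte markers summed to at most 0.647 FPKM and the 2 endothelial markers to at most 0.0855 FPKM in any library, with CD3E at 0. The 3 fibroblast markers summed to 4.09 to 4.40 FPKM in CTR and 6.29 to 6.43 FPKM in miR-8485, nearly all of it COL1A1, while DCN was at 0. The part of these differences in the results that follow was not tested.

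ATF4 mRNA was lower in the mimic libraries, and the 9 targets moved in both directions. ATF4, CHAC1, DDIT4 and SLC7A11 fell, TRIB3, SESN2 and SLC3A2 rose, and PSAT1, PHGDH and ASNS did not pass the test. Differences were tested with limma on log2(FPKM + 0.1) for the 12349 genes with a mean of at least 1 FPKM, and p-values were adjusted by Benjamini-Hochberg over all of them. The pseudocount makes changes of low genes look smaller on this scale. The counts of 3 that rose and 4 that fell stand against a wide background. Past an adjusted p of 0.05 were 59.6% of all tested genes, made up of 29.1% of all tested genes upward and 30.5% downward. All but ASNS reached the level for this test. The 2 groups of libraries did not overlap for 8 of the 10 genes, where 66.5% of all tested genes showed no overlap. With the FPKM rescaled to TPM, the median change over all tested genes moved from -0.0041 to -0.12 in log2. Of the 10 genes, 2 then rose and 5 fell, which is 28.6% upward among those called in place of 42.9%. Over all tested genes this share went from 48.8% to 35.6%.

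**Figure D1:**
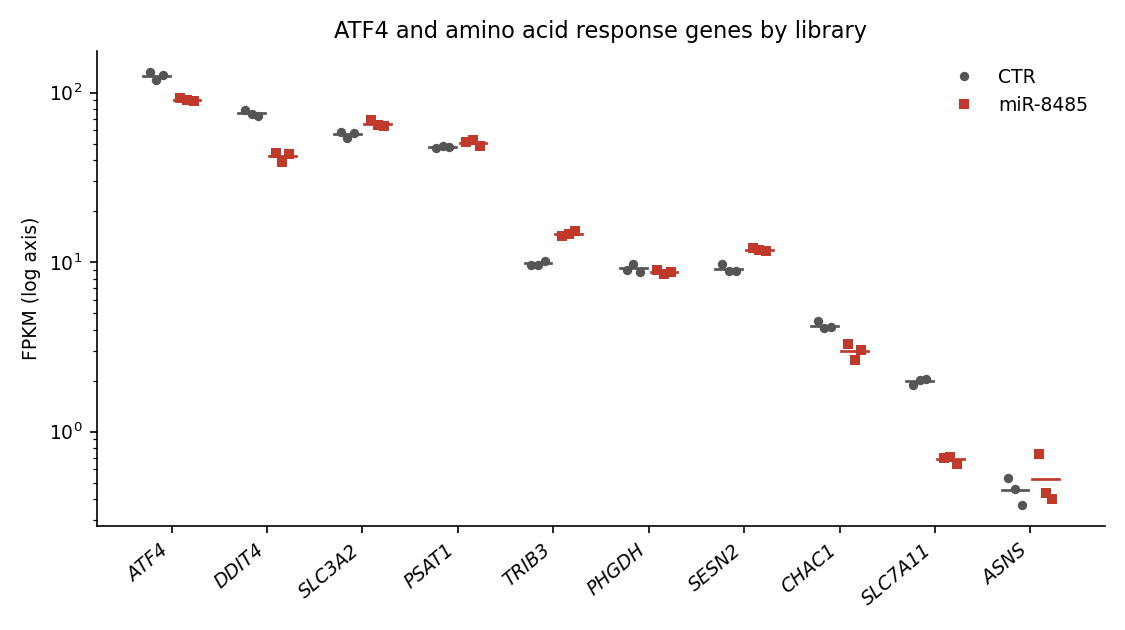
FPKM of the 10 genes (log axis) in the 3 CTR libraries (grey circles) and the 3 miR-8485 libraries (red squares), ordered by the CTR mean, with horizontal lines at the group means. The miR-8485 libraries lie below all CTR libraries for ATF4, DDIT4, CHAC1 and SLC7A11 and above them for SLC3A2, PSAT1, TRIB3 and SESN2.

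ATF4 itself, on chromosome 22 of hg38 from 39519695 to 39522685, had the highest level of the 10 genes. It lay at 132, 118 and 127 FPKM in CTR replicates 1 to 3 and at 93.0, 90.7 and 88.8 FPKM in miR-8485 replicates 1 to 3. Every mimic library was below every control library. The mean fell by 27.6%, from 126 ± 6.79 to 90.8 ± 2.13 FPKM (SD, n = 3 each). The log2 fold change was -0.47 (SE 0.05, limma adjusted p = 1.8e-04), and 17.5% of all tested genes had a lower one. Of the 4 ATF4 pseudogenes listed, ATF4P3 took 3 to 8 fragments per library and the others 0, against 4124 to 5968 fragments on ATF4. The tested genes whose values over the 6 libraries were nearest to those of ATF4, by the Euclidean distance of log2 values centred per gene, were CDK18, CUEDC1 and JMJD6, with distances of 0.056, 0.058 and 0.060.

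SLC7A11 encodes the light chain of the cystine and glutamate exchanger, which brings in cystine for glutathione synthesis. It lies on chromosome 4 (minus strand) from 138164097 to 138242349. Its levels were 1.89, 2.01 and 2.05 FPKM in CTR and 0.704, 0.705 and 0.648 FPKM in miR-8485, from 328, 351 and 357 fragments and 122, 123 and 119 fragments. The mimic libraries lay close together and well below the control libraries. SLC7A11 had the largest change of the 10 genes, a log2 fold change of -1.41 (SE 0.15, limma adjusted p = 1.8e-04), and its mean FPKM fell by 65.4%. A lower log2 fold change was seen in 1.93% of all tested genes. Because the level is low, this value depended on the pseudocount, with -0.82 at a pseudocount of 1 and -1.52 at 0.01. It also moved with the scaling, and over the alternatives it ranged from -1.60, rescaled to TPM, to -0.82. The antisense gene SLC7A11-AS1 overlaps 8.97% of the exon bases of SLC7A11 and held 0 to 3 fragments per library.

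DDIT4, also called REDD1, encodes an inhibitor of the growth kinase complex mTORC1 that responds to hypoxia and to several stresses. On chromosome 10 from 72273920 to 72276036, it was at 79.4, 74.3 and 72.8 FPKM in CTR and at 43.9, 39.0 and 43.2 FPKM in miR-8485. The lowest control library was thus far above the highest mimic library. The mean fell by 44.4%, from 75.5 ± 3.44 to 42.0 ± 2.67 FPKM (SD, n = 3 each). The log2 fold change was -0.85 (SE 0.06, limma adjusted p = 2.6e-05). Its antisense gene DDIT4-AS1 held 0 fragments in all libraries.

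CHAC1 encodes a cytosolic enzyme that degrades glutathione, and it is commonly used as a readout of ATF4 activity. It lies on chromosome 15 from 40952962 to 40956519. The CTR libraries were at 4.47, 4.08 and 4.13 FPKM and the miR-8485 libraries at 3.30, 2.63 and 3.04 FPKM, from 98 to 166 fragments per library. The groups did not overlap, although the mimic libraries spread more widely than for ATF4. CHAC1 fell with a log2 fold change of -0.49 (SE 0.10, limma adjusted p = 0.0032), close in size to that of ATF4. The difference between the changes of these 2 genes was not tested.

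TRIB3 encodes a pseudokinase that binds ATF4 and AKT and restrains ATF4 activity once it has been induced. On chromosome 20 from 362835 to 397559, it was at 9.64, 9.61 and 10.2 FPKM in CTR and at 14.3, 14.7 and 15.2 FPKM in miR-8485. TRIB3 showed the largest rise of the 10 genes. The mean rose from 9.82 ± 0.342 to 14.7 ± 0.482 FPKM (SD, n = 3 each), and the log2 fold change was 0.58 (SE 0.05, limma adjusted p = 6.5e-05). It thus moved opposite to ATF4, and 87.3% of all tested genes had a lower log2 fold change.

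SESN2 encodes sestrin 2, a leucine sensor that holds back mTORC1 and is also a known p53 target. It lies on chromosome 1 from 28259527 to 28282491. Its levels were 9.72, 8.89 and 8.88 FPKM in CTR and 12.0, 11.8 and 11.6 FPKM in miR-8485, with no overlap. The rise was 28.7%, with a log2 fold change of 0.36 (SE 0.05, limma adjusted p = 9.3e-04). Under rescaling to TPM it was smaller, at 0.25 (adjusted p = 0.0138), and still past the threshold.

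SLC3A2 encodes the heavy chain of the heterodimeric amino acid transporters, CD98, which carries the light chains to the cell surface. It lies on chromosome 11 from 62856102 to 62888875. It was at 58.4, 54.1 and 58.1 FPKM in CTR and at 68.9, 64.4 and 63.5 FPKM in miR-8485. The rise of 15.3% was the smallest that passed the test, with a log2 fold change of 0.21 (SE 0.05, limma adjusted p = 0.0102). Rescaled to TPM, SLC3A2 was at 0.09 (adjusted p = 0.219) and no longer past the threshold, and its alternatives spanned adjusted p-values of 5.7e-04 to 0.219.

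PHGDH and PSAT1 encode consecutive enzymes that turn 3-phosphoglycerate into phosphoserine, the route to serine. PSAT1, on chromosome 9 from 78297143 to 78330093, was at 47.0, 48.3 and 47.9 FPKM in CTR and at 51.1, 52.8 and 48.4 FPKM in miR-8485. Its groups were apart by a narrow margin, but the log2 fold change of 0.09 (95% confidence interval -0.02 to 0.19) was not past the threshold (limma adjusted p = 0.134). PHGDH, on chromosome 1 from 119648411 to 119744226, was at 9.05, 9.82 and 8.79 FPKM in CTR and at 8.96, 8.46 and 8.78 FPKM in miR-8485. The libraries overlapped, and the log2 fold change was -0.08 (95% confidence interval -0.21 to 0.06, adjusted p = 0.296). After rescaling to TPM, PHGDH was past the threshold at -0.19 (adjusted p = 0.0279), the lowest of its adjusted p-values in the alternatives, which reached 0.739.

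ASNS encodes asparagine synthetase, a classical target of the amino acid response. It was the lowest of the 10 genes, at 0.535, 0.459 and 0.372 FPKM in CTR and 0.737, 0.434 and 0.401 FPKM in miR-8485, or 30 to 59 fragments per library. The libraries overlapped, and 1 mimic library stood above the other 5. Its mean was below 1 FPKM, so it was fitted with all 31768 genes above 0, of which 22.1% were past the threshold. The log2 fold change was 0.14 (95% confidence interval -0.60 to 0.88, adjusted p = 0.794), or -0.092 when miR-8485 replicate 1 was left out.  ASNS, on chromosome 7 (minus strand) from 97852118 to 97872542, shares 99.5% of the 2385 exon bases of its canonical transcript with the listed noncoding gene AC079781.5 on the same strand. How fragments lying on both genes were counted is not given in the sources used here, and the part of this overlap in the low level was not tested. AC079781.5, looked at after its values were seen, held 6, 2 and 17 fragments in CTR and 47, 46 and 35 in miR-8485. Counted over all exon bases of a gene, ASNS shared 49.3% with other listed genes, and the other 9 genes no more than 8.97%.

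**Figure D2:**
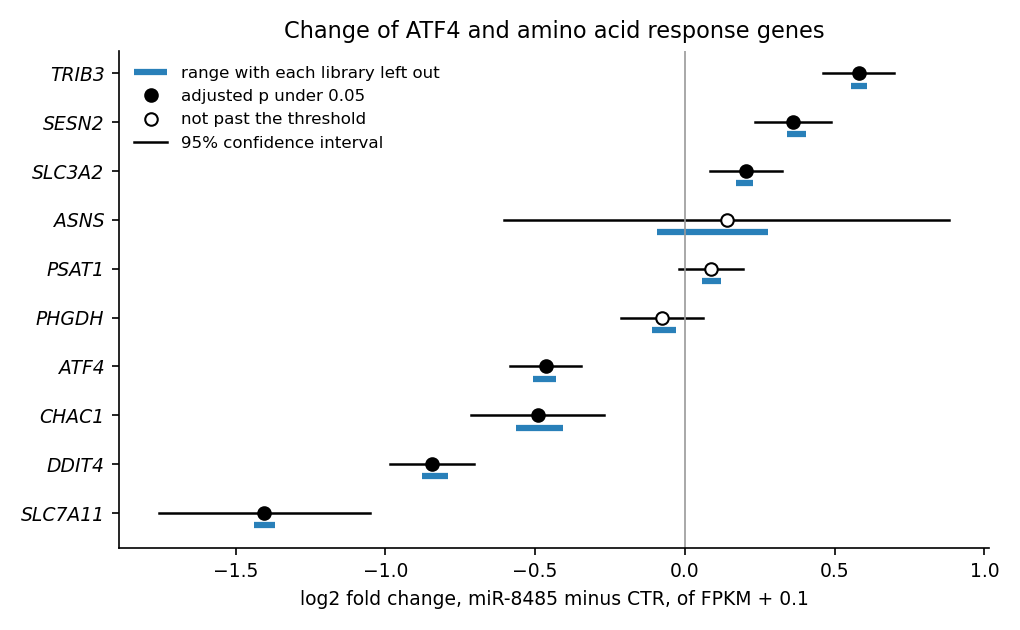
Log2 fold change of FPKM + 0.1 (x axis, miR-8485 minus CTR) of the 10 genes, with 95% confidence intervals from limma (black lines) and the range with each library left out in turn (blue bars). Filled points were past an adjusted p of 0.05: 4 genes lie left of 0, down to -1.41 for SLC7A11, and 3 lie right of 0, up to 0.58 for TRIB3, while the interval of ASNS is the widest.

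The order of the levels changed between the groups. In CTR, ATF4 was followed by DDIT4, SLC3A2 and PSAT1, with no overlap between neighbours. TRIB3, PHGDH and SESN2 followed at 9.82, 9.22 and 9.16 FPKM, and the libraries of these neighbours overlapped. This order depends on the length listed for each gene, 9217 bases for PHGDH, 3434 for TRIB3 and 3453 for SESN2. In fragments, PHGDH held 1466 to 1637 in CTR, TRIB3 597 to 635 and SESN2 555 to 605. CHAC1, SLC7A11 and ASNS came last without overlap. In miR-8485, DDIT4 lay below SLC3A2 and PSAT1, and TRIB3, SESN2 and PHGDH were apart at 14.7, 11.8 and 8.73 FPKM. SLC7A11 came close to ASNS, and the libraries of these 2 genes overlapped. The place of ASNS in both groups is limited by the exon bases it shares with AC079781.5.

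The heavy chain SLC3A2 and its light chain SLC7A11 moved in opposite directions. The ratio of their FPKM was 31.0, 26.9 and 28.4 in CTR, whereas miR-8485 gave 97.9, 91.4 and 98.0. Much more heavy chain mRNA than SLC7A11 mRNA was thus present in every library, and more so after the mimic. The size of this ratio depends on the lengths listed, 5178 bases for SLC3A2 and 9645 for SLC7A11. In fragments, CTR held 5072 to 5451 on SLC3A2 and 328 to 357 on SLC7A11. The miR-8485 libraries held 6033 to 6410 and 119 to 123. SLC7A5, the light chain of the leucine transporter LAT1, held most of the light chain mRNA. It was at 119, 142 and 142 FPKM in CTR and at 134, 137 and 137 FPKM in miR-8485, with a log2 fold change of 0.02 (adjusted p = 0.797). SLC7A6 rose from 1.72 to 2.20 FPKM, which is 0.34 in log2 (limma adjusted p = 0.0480), but was called in 7 of its 16 alternatives and shares 55.6% of its exon bases with other listed genes, mostly SLC7A6OS. SLC7A8 had 0.22 (adjusted p = 0.158). SLC7A7 and SLC7A10 had at most 16 fragments in any library and were not past the threshold. The 6 light chains together held 125 to 149 FPKM in CTR and 140 to 143 FPKM in miR-8485. These ranges overlapped. SLC7A11 was at most 2.05 FPKM in any library, too little of the sum for its fall to show there.

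**Figure D3:**
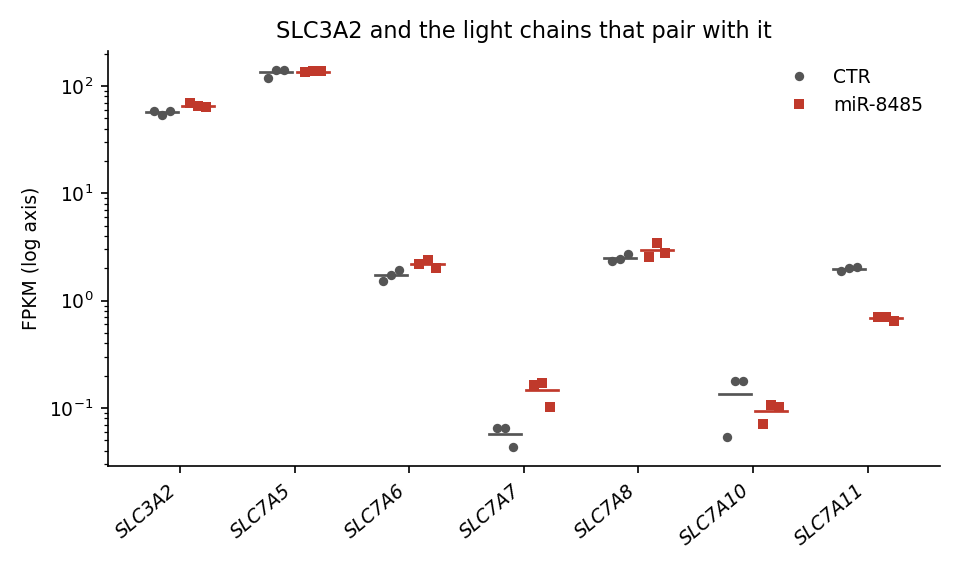
FPKM (log axis) of SLC3A2 and of the 6 light chains that pair with it in the CTR libraries (grey circles) and the miR-8485 libraries (red squares), with lines at the group means. SLC7A11 is lower in all 3 miR-8485 libraries, while SLC7A5, at 119 to 142 FPKM, holds most of the light chain mRNA in both groups.

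Relatives of the 10 genes did not all move like them. ATF5, the factor most like ATF4, was at -0.22 in log2 (adjusted p = 0.0582), not past the threshold. Of the other sestrins, SESN1 rose by 0.44 (limma adjusted p = 0.0067), while SESN3, below 1 FPKM, had 0.08 (adjusted p = 0.831). TRIB1 and TRIB2, the other tribbles genes, had -0.04 and -0.04 (adjusted p = 0.428 and 0.651). CHAC2, which also acts on glutathione, had -0.07 (adjusted p = 0.385). DDIT4L, named here after its values were seen, fell by 0.22 in log2 (adjusted p = 0.0260), but was called in 10 of its 16 alternatives, with an adjusted p of up to 0.122. Differences between relatives were not tested.

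The wider amino acid response was described with 78 further genes in 7 groups. Of these, 69 reached a mean of 1 FPKM, 18 rose, 31 fell and 20 did not pass the test. The called share was 71.0%, with 44.9% of the genes down against 30.5% of all tested genes and 26.1% up against 29.1%. The median log2 fold change was -0.12, beside -0.0041 for all tested genes. Rescaled to TPM, 13 rose and 38 fell, so that 25.5% of the called genes rose in place of 36.7%, while over all genes this share went from 48.8% to 35.6%.

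Upstream of ATF4, 14 genes control the phosphorylation of eIF2 alpha and its use. Of these, 3 rose (21.4%) and 8 fell (57.1%), where 29.1% of all tested genes rose and 30.5% fell. The shares of the groups below stand against the same background. EIF2AK4, which encodes GCN2, the sensor of uncharged tRNA, went from 6.27 ± 0.313 to 6.65 ± 0.186 FPKM (SD, n = 3 each) (log2 fold change 0.08, adjusted p = 0.245). GCN1, of the same group and named after its values were seen, fell from 36.2 to 20.4 FPKM. Its log2 fold change was -0.82 (limma adjusted p = 2.0e-05), and it was called in 17 of 17 alternatives. The kinases of other stresses moved in both directions. EIF2AK1, or HRI, the kinase of heme deficiency, rose from 34.9, 35.4 and 34.5 FPKM to 39.9, 43.8 and 42.3 FPKM, which is 0.26 in log2 (limma adjusted p = 0.0022), and was called in 16 of its 17 alternatives. It is named after its values were seen. EIF2AK2, or PKR, which senses double-stranded RNA, went from 6.82, 7.59 and 7.31 FPKM to 3.25, 3.16 and 3.17 FPKM, which is -1.15 in log2 (adjusted p = 9.3e-06). EIF2AK3, or PERK, the kinase of ER stress, fell by 0.60 in log2 (adjusted p = 0.0036). EIF2B1, a subunit of the exchange factor that phosphorylated eIF2 inhibits, showed the largest rise of this group at 0.56 (adjusted p = 1.3e-04).

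Among 6 tested factors that act with or after ATF4, 1 rose (16.7%) and 2 fell (33.3%). ATF3, a stress-induced repressor and ATF4 target, rose from 8.41 ± 0.368 to 15.8 ± 0.462 FPKM (SD, n = 3 each), which is 0.90 in log2 (limma adjusted p = 1.2e-05). CEBPB, a partner of ATF4 on DNA, fell from 72.1 to 40.6 FPKM, which is -0.82 in log2 (adjusted p = 4.6e-05). DDIT3, or CHOP, was at 4.92, 5.46 and 5.20 FPKM in CTR and at 4.39, 6.47 and 5.70 FPKM in miR-8485 (log2 fold change 0.07, adjusted p = 0.672). Its mimic libraries lay on both sides of the control libraries, and 39.6% of its exon bases are shared with other listed genes, mostly the synthetase gene MARS1 (MARS in the table).

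Enzymes of serine, glycine, folate and proline synthesis were split, with 4 of 8 tested genes up (50%) and 2 down (25%). PSPH, which completes serine synthesis after PSAT1, rose by 0.48 in log2 (adjusted p = 1.7e-04). PYCR1, which makes proline, rose most at 0.57 (adjusted p = 1.8e-04), with 29.7% of its exon bases shared with other listed genes. SHMT2 and MTHFD2, mitochondrial enzymes of the folate pathway, fell by 0.40 and 0.27 (adjusted p = 7.0e-04 and 0.0029). Of 5 tested genes of sulfur amino acids and glutathione, 2 rose and 2 fell (40% each). GPT2, an alanine aminotransferase placed in that group, rose by 0.29 and GCLC, the catalytic subunit of the enzyme that limits glutathione synthesis, fell by 0.48 (adjusted p = 0.0015 and 1.6e-04).

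Among 9 tested amino acid transporters, 2 rose and 2 fell (22.2% each), and 5 did not pass the test. SLC6A9, a glycine transporter, rose by 0.53 (adjusted p = 0.0073), and SLC1A5, a glutamine transporter, fell most, from 69.4 to 48.2 FPKM (log2 fold change -0.53, adjusted p = 8.0e-05). SLC38A2, which takes up small neutral amino acids and is induced when they are scarce, fell by 0.37 (adjusted p = 2.9e-04). Of the 12 aminoacyl-tRNA synthetase and tRNA export genes counted as ATF4 targets, 4 rose (33.3%) and 7 fell (58.3%). IARS1 went from 37.0, 42.2 and 39.1 FPKM to 14.4, 14.4 and 14.9 FPKM, which is -1.43 in log2 (adjusted p = 2.9e-06), while NARS1 rose by 0.38 (adjusted p = 4.4e-04). Among 15 tested mTORC1 and stress output genes, 2 rose (13.3%) and 8 fell (53.3%). GDF15, a secreted stress cytokine, fell from 487, 441 and 478 FPKM to 167, 150 and 164 FPKM, which is -1.55 in log2 (adjusted p = 2.6e-06), and SESN1 showed the largest rise.

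**Figure D4:**
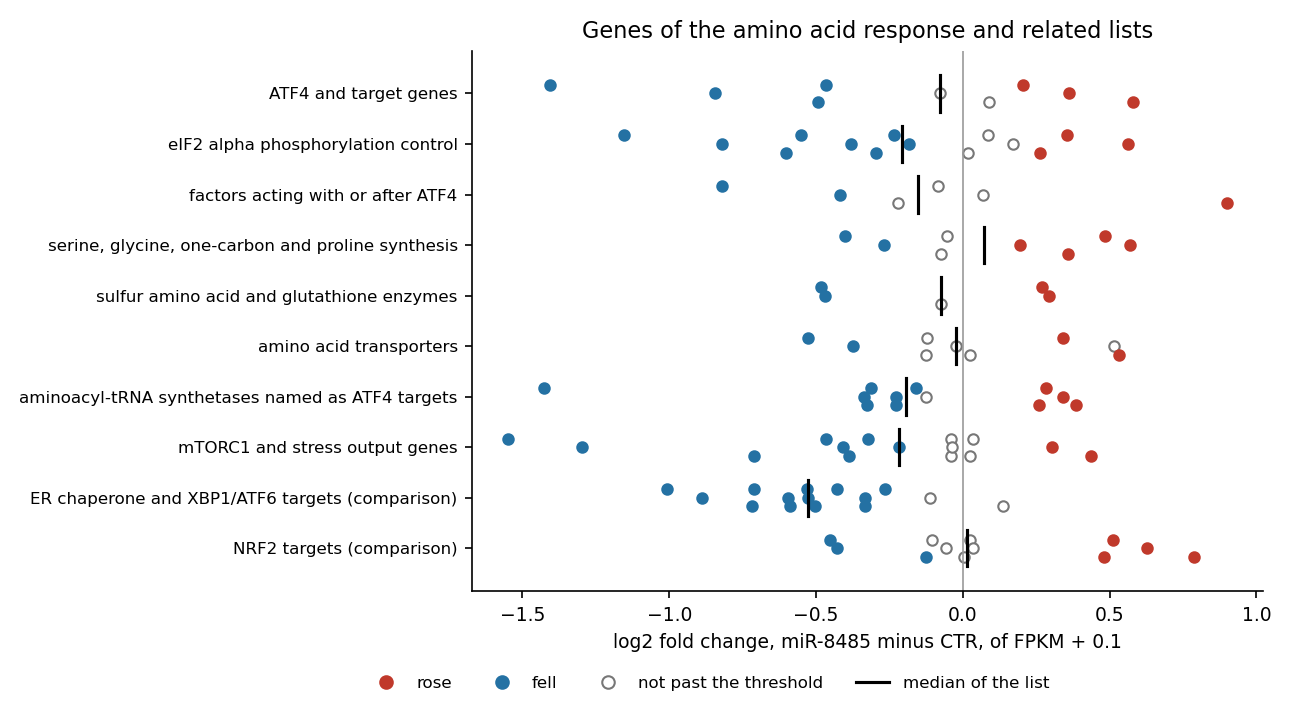
Log2 fold change of FPKM + 0.1 (x axis, miR-8485 minus CTR) of each tested gene in the lists named on the y axis, with the list median as a black line. Red points rose and blue points fell at an adjusted p under 0.05, and open points did neither. Each list of the amino acid response holds genes on both sides of 0. The list of ER chaperone and XBP1/ATF6 targets also holds XBP1 and ATF6 themselves. Of its 15 genes, named after their values were seen, 13 fell, where 30.5% of all tested genes fell.

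For comparison, a neighbouring branch of the stress response is given with genes named after their values were seen. These 15 genes were XBP1 and ATF6 themselves, their targets and ER chaperone genes. Of the 15, 13 fell, XBP1 and ATF6 among them, where 30.5% of all tested genes fell and 29.1% rose. Their median log2 fold change was -0.53 over all 15, beside -0.08 for the 9 tested genes of ATF4 and its targets. The other 2 of the 15 were SDF2L1 at 0.14 and CRELD2 at -0.11 (adjusted p = 0.235 and 0.298). Each of these 2 was past the threshold in 2 of its 17 alternatives. HSPA5, the main ER chaperone, fell from 249 to 135 FPKM, which is -0.89 in log2 (adjusted p = 4.95e-06). Of 12 targets of NRF2, the factor that also drives SLC7A11, 4 rose, 3 fell and 5 did not pass the test. HMOX1 rose by 0.51 and TXNRD1 fell by 0.43 (adjusted p = 5.7e-05 and 3.2e-04). No test of the difference between these lists was made.

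Read beside the sequences, each of the 4 genes that fell held a copy of TGTGTGT in its 3′ UTR, as did SESN2, which rose. TRIB3, SLC3A2 and the 3 genes that did not pass the test held none. Over all tested genes with an annotated 3′ UTR, 44.5% of the 3085 with a copy and 29.2% of the 7587 without one fell, and 19.6% and 31.9% rose. The genes with a copy had longer 3′ UTRs, with a median of 2721 bases against 877. Among the 10 genes the count is a description, without a test. Of the 3 genes with a CARE match, CHAC1 fell, SLC3A2 rose and ASNS did not pass the test. Rescaled to TPM, SLC3A2 was no longer past the threshold, and ASNS shares most of its canonical exon bases with AC079781.5. A link between the matches and the direction of change was not tested.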

How the data were processed

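Total RNA of HCT116 cells was sequenced after library preparation with a VAHTS kit. Per the submitters' notes and methods, fastp was used for trimming, HISAT2 2.0.5 for alignment (hg38) and featureCounts 1.5.0-p3 for counting. The authors deposited FPKM values, 1 column per library, and 0 columns were left without a sample. The annotation release and the strand setting are not given in the sources used here.

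From these values, 100% of those above 0 were whole multiples (within 0.05) of what 1 fragment is worth, which gave fragments per gene. Limma 3.58.1 (R 4.3.3) was fitted two-sided with a variance trend on log2(FPKM + 0.1) for 12349 genes whose FPKM averaged 1 or more, and genes below were taken from a fit of all 31768 genes above 0. The alternatives changed the pseudocount (1 or 0.01), the filter (none, or an average of 5 FPKM) or the scaling (median-of-ratios, quantile, TPM), or used removal of the gene length trend, no variance trend, a replicate block, voom on the fragments and each library left out. The 10 genes and the lists were chosen with earlier results of these data known. Named beside the 10 genes were the largest called rise and fall of each group, a set of genes fixed by symbol, the light chains of SLC3A2 and the 3 genes nearest to ATF4. The labels say that the replicates are independent and biological.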

Additional observations from a re-analysis of the deposited data

How the results depend on the processing

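Of 17 alternatives, all that could be run kept ATF4, CHAC1, DDIT4 and SLC7A11 down and TRIB3 and SESN2 up past the threshold. CHAC1 and SLC7A11 could not be fitted at a minimum average of 5 FPKM, a limit that left 2 of the 10 genes falling and 2303 rising and 2417 falling among all genes. Near 0, PSAT1 had -0.028 rescaled to TPM and -0.027 with the gene length trend removed, PHGDH had 0.033 with that trend removed, and ASNS ranged from -0.092 to 0.28 with each library left out. The cause was not tested. With each library left out, 3124 to 3561 genes rose and 3382 to 3663 fell, and 3 of the 10 genes rose and 4 fell each time. Labels number the replicates alike. Same-numbered libraries deviated from their group means with correlations of 0.067, 0.033 and -0.064, where all pairs lay between -0.094 and 0.067. With 3 libraries per group, these values cannot show whether same-numbered libraries were handled together. Not every library correlated best with its own number. Voom on the fragments called 3920 genes up and 3895 down, and 3 and 4 of the 10. The replicate block gave 3634 rising and 3754 falling genes, and 3 and 4 of the 10, and changed no call among the 10. Fragments limit ASNS most, with 30 to 59 per library.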

Other observations

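A few genes of the amino acid response lay below 1 FPKM and were fitted with all 31768 genes above 0. They are named after their values were seen. CREBRF was at 0.522, 0.507 and 0.538 FPKM in CTR and at 0.944, 0.910 and 0.996 FPKM in miR-8485, from 113 to 120 and 203 to 234 fragments. It rose by 0.75 in log2 (limma adjusted p = 0.0271), and was past the threshold in 12 of 15 alternatives, whose adjusted p-values lay between 6.1e-05 and 0.0739. SLC1A4, a transporter of alanine and serine, was at 0.711, 0.876 and 0.971 FPKM in CTR and at 0.538, 0.454 and 0.378 FPKM in miR-8485. Its libraries did not overlap, but its change of -0.78 in log2 was not past the threshold (limma adjusted p = 0.0639, with 0.0022 to 0.152 in the alternatives). ALDH1L2, INHBE, NUPR1, VLDLR, CBS and FGF21 reached no more than 26 fragments per library.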
